A study of Mus musculus with 12 samples.

Results

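Vehicle-treated mouse colonoids labelled KO were compared with vehicle-treated control colonoids, to describe how the 2 genotypes differed before any heme was given. Colonoids are organoids grown from colonic epithelial stem cells, here from mice of 8 to 12 weeks. Of the 12 poly-A mRNA libraries of the series, 6 belong to this comparison, 3 for each genotype. The control libraries carry the floxed allele alone (Hmox1 fl/fl), and the 3 KO libraries used here are labelled Hmox1 KO with Vil1 Cre, a Cre recombinase driven by the promoter of the intestinal epithelial gene villin. Both groups were grown in conditioned medium that supplies Wnt3a, R-spondin and noggin and were collected after 24 h with vehicle. The other 6 libraries received hemin at 200 μM for 24 h and are used below only to ask which differences were also present there. Of the KO libraries with hemin, replicate 3 is titled as Hmox1 KO like the others, but its genotype is entered as Hmox1 fl/fl with Vil1 Cre. The sources used here do not give how many mice or colonoid lines stand behind the 3 libraries of a group, or which segment of the colon they came from. Genotype, Cre and line of origin therefore cannot be told apart, and every p-value measures only the spread between libraries, which may be technical.

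The colonic epithelium renews itself from crypt stem cells, which give rise to absorptive colonocytes and to secretory goblet, enteroendocrine and tuft cells. Along its length the epithelium differs in how it moves salt, water and acid, and in which hormones its endocrine cells make. Position along the body axis is marked by the Hox genes, 4 clusters of transcription factor genes whose paralog groups are numbered from anterior to posterior, group 13 being the most posterior. *Hmox1* encodes heme oxygenase 1, the inducible enzyme that opens the heme ring and releases iron, carbon monoxide and biliverdin.

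The deposited unit is FPKM, a count of fragments scaled by gene length and by a factor for each library. A gene entered the tests when 3 or more of the 6 libraries had 1 FPKM or above. This left 12105 of the 54532 genes of the table. The depth of the 6 libraries was 13257589 to 16462911 fragments assigned to genes. Control replicate 1 stood apart from the other 5, since *Gm23935*, a 57-base miRNA gene model, held 16.8% of its FPKM sum against 1.18% to 1.53% in the others; without that library 452 genes were called higher and 433 lower by the rule given below. The 9 epithelial markers examined, among them *Epcam* and *Krt8*, summed to 9646 to 10770 FPKM in control and to 7103 to 7142 in the libraries labelled KO. The 18 markers of blood, stromal, endothelial and muscle cells summed to at most 4.46 FPKM in any of the 6 libraries, and 3 of them had no fragment at all. *Xist*, the transcript of the inactive X chromosome, was at 54.8 to 70.2 FPKM in all 6, and 4 Y-linked genes had no fragment in any.

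*Hmox1*, the targeted gene, lies on chromosome 8 (75093621 to 75100589, mm10 coordinates as deposited). The control libraries held it at 7.62, 6.85 and 7.90 FPKM and those labelled KO at 3.14, 2.11 and 2.31. All 3 KO values lay below all 3 control values, with a log2 fold change of −1.27 (SE 0.11, adjusted p = 1.3e-04 from limma). The KO libraries still held 222 *Hmox1* fragments in all against 615 in control, and whole-gene FPKM do not show from which exons they came. In the hemin libraries the order was the opposite of the label, at 503, 483 and 382 in control and 1279, 1392 and 1271 in KO, so the genotype is given as labelled throughout. Within 5 Mb on either side of *Hmox1*, 99 other genes were tested, of which *Rasd2* (1.27) and *Arhgap10* (1.17) were called higher and *Isx* (−1.26) lower. These 3 are 3.03% of the 99, against 7.16% called among all genes tested. *Isx* starts at 74873173 and *Rasd2* at 75213944, close to *Hmox1* on either side, and *Arhgap10* lies farther away, at 77250366.

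The resting difference was broad. Calls required an adjusted p-value below 0.05 together with a log2 fold change beyond 1 in either direction, measured on log2(FPKM + 1), a scale that understates the change of low genes. In the libraries labelled KO, 451 genes were called higher (3.73% of the genes tested) and 416 lower (3.44%), and 775 of the 867 are protein-coding. In 866 of the 867, *Gm6665* being the exception, all 3 KO values lay on the same side of all 3 control values, as they did for 58.9% of all genes tested. The adjusted p-value alone was under 0.05 for 5860 genes (48.4%), 4993 of them with a change of at most 1, so the call rests mostly on the fold change. Log2 fold changes went above 3 in 49 of the genes called higher and below −3 in 24 of those called lower. No fragment was seen in any control library for 17 of the genes called higher, nor in any KO library for 13 called lower. Such genes passed the filter through 1 group alone, which fixed the direction of any call. The median over all tested genes was 0.023. The gene lists below were chosen with earlier results of these data known, so the share of each that was called is a description.

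**Figure D1:**
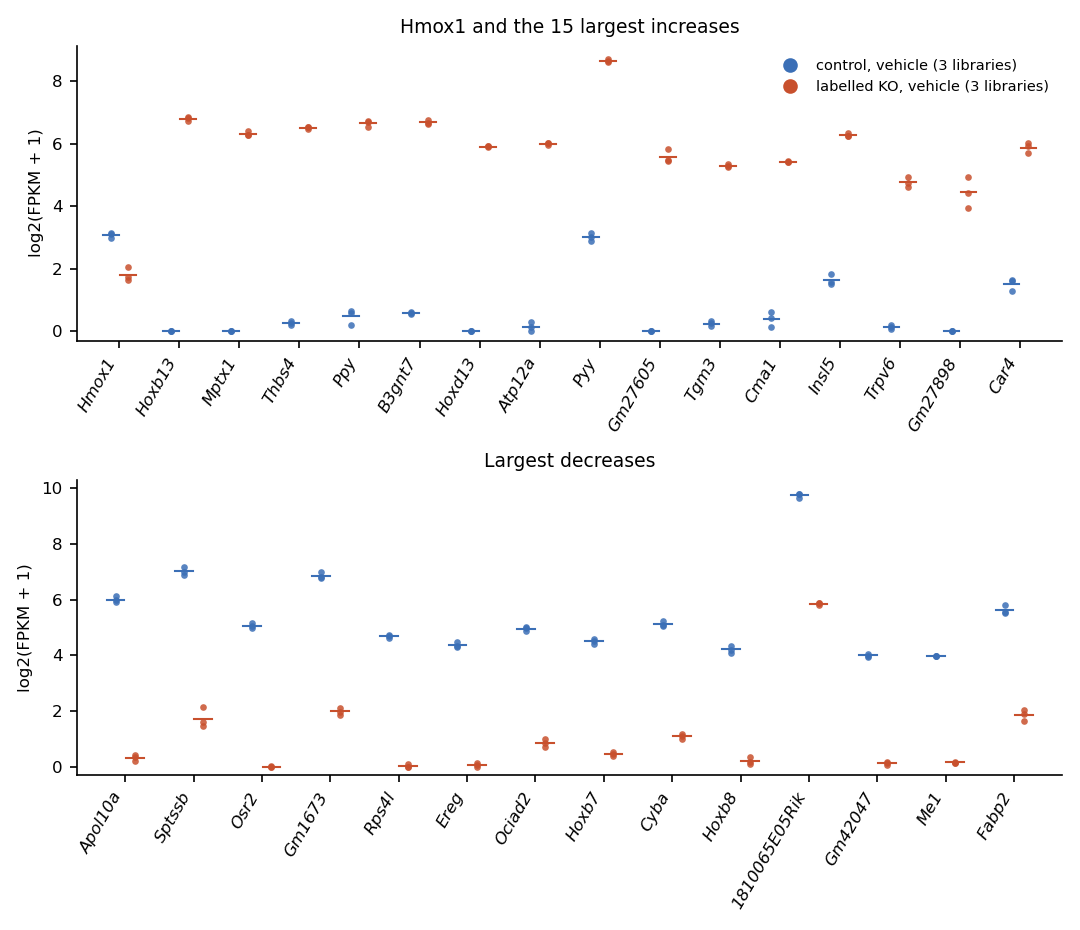
Expression of *Hmox1*, of the 15 largest increases and of the largest decreases under vehicle, as log2(FPKM + 1). Points are single libraries, 3 per genotype, and lines are group means. The increases and decreases were picked to have separate groups, so their lack of overlap follows from that choice. *Hmox1*, drawn as the targeted gene, had separate groups too, as did 58.9% of all genes tested. *Hoxb13* rose from 0 in all control libraries to 104 to 115 FPKM.

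The largest increase of all was in a Hox gene. *Hoxb13*, the most posterior gene of its cluster, had no fragment in any control library and an FPKM of 104, 115 and 111 in the libraries labelled KO. *Hoxd13*, its counterpart in another cluster, was likewise at 0 in control and at 59.7, 59.7 and 58.0 in KO. Against a floor of 3 fragments over the 3 control libraries, *Hoxb13* was at least 3826-fold and *Hoxd13* at least 2317-fold higher in KO (log2 fold changes 6.79 and 5.91, adjusted p = 3.1e-09 for each from limma). *Hoxa13* was already present in control, at 8.22, 6.91 and 7.54, and reached 29.6, 28.7 and 28.7, while *Hoxa10* went from 4.41, 5.28 and 4.72 to 19.5, 21.3 and 21.1. All 4 tested genes of the posterior Hox list were thus called higher, against 3.73% of all genes. The median was 3.91, or 5.65 with a pseudocount of 0.1. *Hoxb13* and *Hoxd13* passed the filter through the KO libraries alone, so a call for them could only be higher. The other 8 of the 12 stayed under the filter. Of these, *Hoxd10*, *Hoxd11* and *Hoxd12* had 0 fragments in control and 70, 246 and 14 in KO, and *Hoxa11* had 89 and 118. *Hoxc11* had 3 and 0, and *Hoxc10*, *Hoxc12* and *Hoxc13* had no fragment in either genotype.

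Anterior and middle Hox genes mostly went the other way. Of 16 tested, 8 were called lower and 2 higher, 62.5% of them against 7.16% of all genes, with a median of −0.996. *Hoxb8* had an FPKM of 16.2, 17.5 and 19.4 in control and 0.279, 0.132 and 0.0676 in KO, and *Hoxb7* of 23.1, 20.2 and 22.1 and 0.436, 0.375 and 0.308. *Hoxb6*, the most abundant of them in control, fell from 53.3, 60.3 and 57.1 to 3.83, 3.89 and 3.99. These are decreases of 111-fold, 58.6-fold and 14.6-fold in mean FPKM. *Hoxb3* (−1.47), *Hoxb4* (−2.26), *Hoxb5* (−2.46), *Hoxb9* (−1.76) and *Hoxd8* (−1.72) also fell. Both increases were in the Hoxa cluster, *Hoxa6* (1.69) and *Hoxa9* (1.72).

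**Figure D2:**
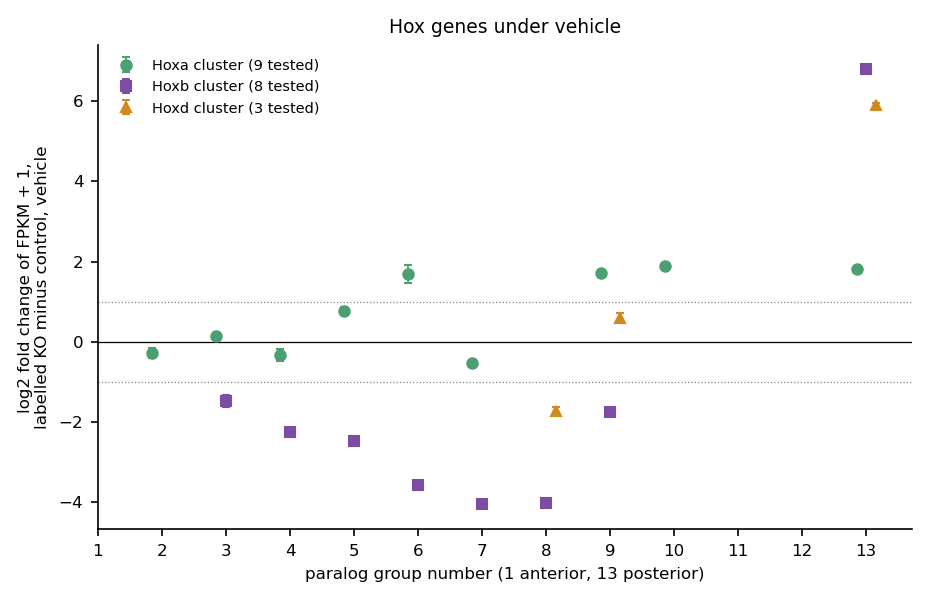
Log2 fold change, KO against control with vehicle, for the 20 Hox genes tested, against their paralog group number, with bars of 1 SE and dotted lines at the fold change threshold. Within the Hoxb cluster (squares) groups 3 to 9 lie below −1 and group 13 at 6.79; in the Hoxa cluster (circles) groups 6, 9, 10 and 13 lie above 1.

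Noncoding genes lie between the Hox genes. Counting every gene of the table between the outermost Hox genes of a cluster and 25 kb beyond, a window chosen after values were seen, 10 of 20 tested genes were called higher and none lower at Hoxa. At Hoxb, 4 of 17 were called higher and 10 lower, at Hoxd 2 of 4 were higher and 1 lower, and at Hoxc none of the 17 genes passed the filter. Among all genes tested 3.73% were called higher and 3.44% lower. *Hottip*, the long noncoding RNA beyond *Hoxa13*, was at 0.168, 0.203 and 0.278 in control and 6.80, 5.39 and 6.37 in KO, and *Hoxa11os*, antisense to *Hoxa11*, at 0.671, 0.666 and 0.734 and 15.01, 15.04 and 15.4. Beside *Hoxb13*, the short models *Gm27605* and *Gm27898* had no control fragment and 327 and 87 KO fragments, at least 102-fold and 27.3-fold higher. *Hoxb5os* fell from 10.0, 12.9 and 12.8 to 1.49, 0.831 and 0.939 along with *Hoxb5*. Whether counting used strand is not given in the sources used here, so fragments of a gene and its antisense partner cannot be told apart.

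The sequences just upstream of 1 Hox gene that rose and 2 genes that fell are shown because Hox and CDX proteins, whose mRNAs differed between the genotypes, bind related AT-rich motifs. RefSeq held such a window for 615 of the 867 called genes, matched by symbol. The 3 printed are the 250 bases before the RefSeq start site on GRCm38.p6, 5′ to 3′ on the strand of the gene, for *Hoxd13* (chr2:74667975-74668224, plus strand), *Hoxb8* (chr11:96281655-96281904, plus strand) and *Fabp2* (chr3:122894822-122895071, plus strand). Capitals mark the letters CAATAAA, a posterior HOX motif, and TATAAA, the TATA box, each searched on both strands, where the second overlaps its own reverse in *Hoxd13*. CCATAAA, a CDX motif, was searched as well. The RefSeq start of *Hoxd13* lies upstream of its start in the deposited table.
Hoxd13: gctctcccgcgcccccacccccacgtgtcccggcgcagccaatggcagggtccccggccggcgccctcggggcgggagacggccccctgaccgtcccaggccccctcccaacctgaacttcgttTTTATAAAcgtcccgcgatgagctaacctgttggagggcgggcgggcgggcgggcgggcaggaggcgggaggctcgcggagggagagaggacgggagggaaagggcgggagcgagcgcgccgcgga
Hoxb8: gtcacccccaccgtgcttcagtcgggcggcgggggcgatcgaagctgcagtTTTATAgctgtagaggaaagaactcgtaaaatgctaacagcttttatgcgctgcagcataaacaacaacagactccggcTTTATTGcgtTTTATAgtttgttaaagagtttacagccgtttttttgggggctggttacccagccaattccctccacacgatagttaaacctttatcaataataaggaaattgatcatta
Fabp2: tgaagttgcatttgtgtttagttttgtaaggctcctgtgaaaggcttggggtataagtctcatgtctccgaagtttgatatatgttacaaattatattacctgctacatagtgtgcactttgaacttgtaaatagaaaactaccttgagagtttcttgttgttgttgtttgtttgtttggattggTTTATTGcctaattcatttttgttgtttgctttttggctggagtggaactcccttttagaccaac
CAATAAA was found once in the *Hoxb8* window and once in that of *Fabp2*, and in 4.20% of all 32851 windows of the same length. TATAAA was found in the windows of *Hoxd13* and *Hoxb8* and in 12.4% of all windows, and CCATAAA in none of the 3 and in 2.43% of all. A match of letters is a description, and nothing was measured on binding.

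Among other transcription factors that pattern the gut, 2 of 19 tested were called higher and 5 lower, 36.8% of them against 7.16% of all genes. *Osr2*, an odd-skipped family zinc finger factor, had an FPKM of 30.4, 34.5 and 32.2 in control and 0, 0.0160 and 0 in KO, where it had 1 fragment in all 3 libraries. *Cdx2*, the caudal homeobox factor that specifies intestinal epithelium, had 175, 217 and 214 in control and 47.3, 50.5 and 48.2 in KO, a 4.15-fold decrease. Its paralog *Cdx1* was at 185, 224 and 226 and 270.4, 282 and 275, a change of 0.38 that was not called. *Tbx3* (−2.69), *Isx* (−1.26), which represses vitamin A uptake and cleavage, and *Prdm16* (−1.18) fell as well. *Foxa2* rose from 2.97, 2.30 and 2.61 to 27.2, 29.2 and 27.4 and *Foxa3* by 1.07 on the log2 scale. Both are forkhead factors of secretory cells. *Gata4*, which is expressed in the proximal small intestine, stayed under the filter, with 124 fragments in control and 12 in KO. Also untested were *Gata5* (92 and 2) and *Onecut2* (72 and 7), lower in KO, and *Pdx1* (25 and 123), *Prdm1* (121 and 299) and *Maf* (65 and 240), higher. The median of the 19 was −0.20.

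Genes that move salt, water and acid in the distal colon were more often called higher than lower. Of 26 tested, 9 were called higher and 2 lower, 42.3% of them against 7.16% of all genes, with a median of 0.26. *Atp12a*, the catalytic subunit of the colonic proton-potassium pump, was at 0, 0.102 and 0.217 in control and 61.2, 63.9 and 64.4 in KO (5.86, SE 0.077, adjusted p = 3.4e-08 from limma). It rested on 19 fragments in control against 12812 in KO. *Scnn1a*, the alpha subunit of the epithelial sodium channel ENaC, rose from 1.14, 1.10 and 0.863 to 17.4, 18.3 and 19.3. Its partner *Scnn1b* had no fragment in control and 52 in KO but stayed under the filter, and *Scnn1g* was untested too. *Aqp8*, an aquaporin of the colonic surface, rose from 38.2, 47.6 and 46.2 to 408, 445 and 425, and *Aqp4* from 11.2, 10.1 and 10.2 to 74.5, 72.5 and 71.9. *Car4*, the membrane-bound carbonic anhydrase 4, was at 1.45, 2.02 and 2.15 in control and 50.7, 64.0 and 59.2 in KO. The chloride channel gene *Best2* (3.69), the chloride-bicarbonate exchanger gene *Slc26a3* (1.32), the kinase gene *Sgk1* (1.14) and *Fxyd4* (1.37) rose too. The 2 that fell were *Guca2a* (447, 539 and 513 against 81.5, 86.9 and 84.7) and *Guca2b* (−1.26), which encode guanylin and uroguanylin, ligands of the guanylate cyclase C receptor. *Slc9a3*, a sodium-proton exchanger, was not called (−0.44).

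**Figure D3:**
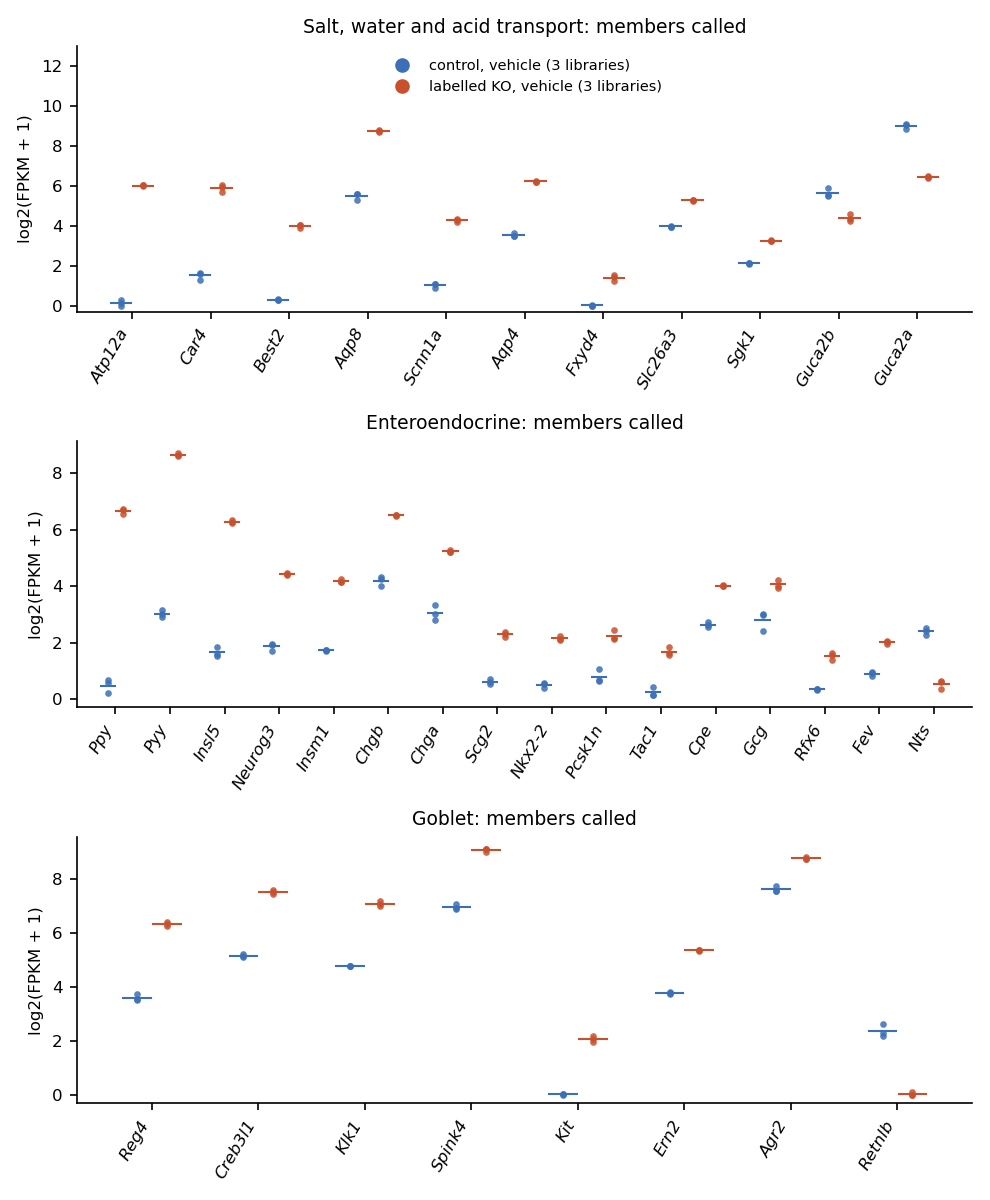
Expression under vehicle of every called member of the transport, enteroendocrine and goblet lists, as log2(FPKM + 1). Points are single libraries and lines are group means; 9 of 11 transport, 15 of 16 enteroendocrine and 7 of 8 goblet genes shown are higher in the libraries labelled KO. The groups of the genes drawn do not overlap, as is so for 866 of the 867 called genes and 58.9% of all genes tested.

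Enterocyte genes of the small intestine were called in both directions. Of 18 tested, 5 were called higher and 3 lower, 44.4% of them against 7.16% of all genes, with a median of −0.05 that turns to 0.095 by TPM, a rescaling that also moved the median of all genes from 0.023 to 0.17. *Slc11a2*, which encodes the ferrous iron importer DMT1, was at 6.90, 7.44 and 7.66 in control and 104, 113 and 109 in KO, a 14.8-fold increase. The peptide transporter gene *Slc15a1* rose from 0.211, 0.0958 and 0.164 to 7.17, 8.22 and 7.49, and *Rbp2* (1.86), *Apoa1* (1.58) and *Ace* (1.42) rose with it. *Fabp2*, the intestinal fatty acid-binding protein gene whose upstream sequence is shown above, fell from 55.5, 46.2 and 44.9 to 2.09, 2.76 and 3.14. The alkaline phosphatase gene *Alpi* (−1.19) and the sulfate transporter gene *Slc13a1* (−1.10) also fell. In the overlapping list of lipid absorption genes, 4 of 14 were called lower and 1 higher, 35.7% of them, with a median of −0.31. *Gpat3* (−1.99), *Mogat2* (−1.59) and *Dgat2* (−1.02), 3 enzymes that build triglyceride, were the other members that fell, though *Dgat2* was not called by TPM. The list's median was −0.18 by TPM.

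Most of the enteroendocrine genes tested were called higher. Of 22 tested, 15 were called higher and 1 lower, 72.7% of them against 7.16% of all genes, and the median was 1.41. With a pseudocount of 0.1, 19 were called higher and the median was 2.29, and by TPM these were 19 and 2.04. Summed over all 30 genes of the list, FPKM was 62.5, 67.6 and 69.4 in control and 803, 829.7 and 806 in KO. More endocrine cells and more of these mRNAs per cell cannot be told apart in bulk libraries, here or for any other cell type. *Pyy*, which encodes the satiety hormone peptide YY, went from 7.88, 6.49 and 7.15 to 396, 417 and 396 (5.63, SE 0.067, adjusted p = 2.2e-08 from limma). Its relative *Ppy*, pancreatic polypeptide, which passed the filter through the KO libraries alone, went from 0.485, 0.585 and 0.146 to 102, 92.2 and 104. *Insl5*, a hormone gene of colonic L cells, went from 2.60, 1.86 and 2.01 to 75.1, 80.4 and 75.7. These hormone genes were joined by *Gcg* (1.26), the gene of proglucagon and GLP-1, and *Tac1* (1.43), the gene of substance P.

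The granule genes *Chga*, at 6.01, 7.07 and 9.03 in control and 36.3, 38.0 and 35.9 in KO, and *Chgb*, at 14.98, 19.2 and 18.2 and 91.6, 91.3 and 88.6, rose by 2.19 and 2.32 in log2 units. *Neurog3*, the factor that commits progenitors to the endocrine lineage, was at 2.90, 2.27 and 2.78 in control and 20.2, 20.98 and 20.8 in KO. The factors that act after it, *Insm1* (2.46), *Nkx2-2* (1.65), *Rfx6* (1.17) and *Fev* (1.11), rose too, as did *Scg2* (1.68), *Cpe* (1.38) and *Pcsk1n* (1.46) of the secretory granule. *Nts*, the gene of neurotensin, was the member that fell, from 4.76, 3.80 and 4.26 to 0.294, 0.510 and 0.571. *Cck* (0.15), *Tph1* (0.49) and *Sst* (0.68), which mark other endocrine subtypes, were not called with the pseudocount of 1. As said above, more genes of the list were called with a smaller one.

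Goblet cell genes were called higher in part. Of 21 tested, 7 were called higher and 1 lower, 38.1% of them against 7.16% of all genes, with a median of 0.36. *Reg4* rose from 12.2, 10.6 and 10.8 to 76.0, 80.5 and 84.2, *Spink4* from 133, 118 and 121 to 547, 511 and 548 and *Klk1* from 26.5, 26.3 and 26.6 to 128, 144 and 133. *Creb3l1* (2.37), *Ern2* (1.59) and *Agr2* (1.14), which serve the secretory pathway of mucus-making cells, and the receptor gene *Kit* (2.05) rose as well. *Muc2*, the main gel-forming mucin of the colon, was not among them, at 85.6, 119 and 107 in control and 72.9, 71.8 and 72.7 in KO (−0.50, not called). *Tff3* differed by 0.14 and *Retnlb*, a secreted resistin-like gene, fell from 5.23, 3.62 and 3.87 to 0, 0.0831 and 0. Of the 8 genes of the Paneth list 3 were tested, of which *Lyz1* rose (1.27) and *Mmp7* (−2.88) and *Nupr1* (−1.62) fell. None of the 19 tuft cell genes passed the filter, and their FPKM summed to between 1.81 and 2.15 in every library.

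Genes of the cell cycle differed by less than the fold change threshold. None of the 31 proliferation genes was called, but 28 had an adjusted p-value under 0.05, as 48.4% of all genes did, and 30 had a positive change, against 6441 of all 12105 genes, with a median of 0.40. *Mki67*, for example, was at 47.8, 44.5 and 45.2 in control and 62.0, 57.6 and 60.4 in KO (0.38). Of 18 stem cell and Wnt target genes, *Ascl2* (1.69) and *Smoc2* (1.18) were called higher and *Prom1* (−1.54) lower. That is 16.7% of them against 7.16% of all genes, and by TPM 4 were called higher and 1 lower. *Lgr5*, the stem cell receptor gene, was at 2.79, 1.92 and 2.64 in control and 2.32, 2.32 and 2.44 in KO. The median of the 18 was 0.048. Of 26 differentiated colonocyte genes, 5 were called lower and 2 higher, 26.9% of them against 7.16% of all genes, with a median of −0.29, or −0.15 and 3 higher by TPM. *Emp1* fell from 317, 334 and 311 to 99.3, 94.2 and 97.3, and *Clca4b* (−1.69), *Dhrs9* (−1.65), *Mall* (−1.39) and *Lgals3* (−1.21) fell with it. The 2 called higher, *Ggh* (1.01) and *Slc20a1* (1.005), sat at the threshold and lost the call without 1 of the control libraries (replicates 3 and 1).

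The fetal-like and wound repair state, which the epithelium enters on injury, was represented by 18 tested genes. Of these, 6 were called lower and 1, *Marcksl1* (1.51), higher, 38.9% of them against 7.16% of all genes, with a median of −0.49. Without control replicate 1, and by TPM, 3 rather than 1 were called higher. *Ereg*, the gene of the EGF receptor ligand epiregulin, was at 21.4, 18.6 and 19.1 in control and 0.0889, 0 and 0.0576 in KO. *Areg*, the gene of the related ligand amphiregulin, fell from 141, 122 and 139 to 59.6, 52.8 and 54.1. *Il1rn* (−1.61), *Clu* (−1.50) and *Plaur* (−1.15) fell as well.

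In central metabolism the share of genes called was near that of all genes, 7.16%, at 9.68% for cholesterol and fatty acid synthesis, 7.14% for fatty acid oxidation and 6.67% for glycolysis. Of 31 genes of cholesterol and fatty acid synthesis, 29 had an adjusted p-value under 0.05, against 48.4% of all genes, and 28 a negative change, with a median of −0.49, but only 3 were called. *Me1*, the cytosolic malic enzyme that supplies NADPH, was at 14.7, 14.9 and 14.7 in control and 0.111, 0.0902 and 0.139 in KO, a 130.4-fold decrease. The fatty acid elongase gene *Elovl6* fell from 27.7, 26.5 and 26.1 to 7.83, 7.28 and 7.35 and the sterol cyclase gene *Lss* had −1.03. With values rescaled to TPM, an adjusted p-value under 0.05 was reached by 17 of the 31, and 1 was called higher and 2 lower. Fatty acid oxidation and PPAR genes had a median of −0.34, or −0.19 by TPM, with *Pparg* (48.4, 43.8 and 46.4 against 19.1, 18.1 and 17.7) and *Vnn1* (−1.13) called lower among 28.

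Of 30 glycolysis and hypoxia genes, none was called higher and *Ndrg1* (106, 105 and 111 against 41.1, 39.9 and 39.7) and *Gapdh* lower, with a median of −0.27, or −0.16 and 1 higher by TPM. The call of *Gapdh*, which has many processed pseudogenes that can share its fragments, was lost on leaving out any 1 of 5 of the 6 libraries, control replicate 2 being the exception, and its FPKM was 16.9, 6.70 and 19.8 in control and 4.97, 4.65 and 5.19 in KO. Of 8 genes of fructose use and gluconeogenesis, 2 were called higher, 25% of them against 3.73% of all genes, among them the pyruvate carboxylase gene *Pcx* (7.98, 8.27 and 8.63 against 25.8, 26.9 and 25.3). No gene was called among 82 nuclear genes of oxidative phosphorylation, of which 10 had an adjusted p-value under 0.05, against 48.4% of all genes (median −0.0052, or 0.14 by TPM), nor among the 13 mitochondrially encoded mRNAs, where 7.16% of all genes were called. The latter were all negative, with a median of −0.37 and 4 adjusted p-values under 0.05. That median was −0.25 without control replicate 1 and −0.23 by TPM, with 2 adjusted p-values under 0.05 by TPM.

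**Figure D4:**
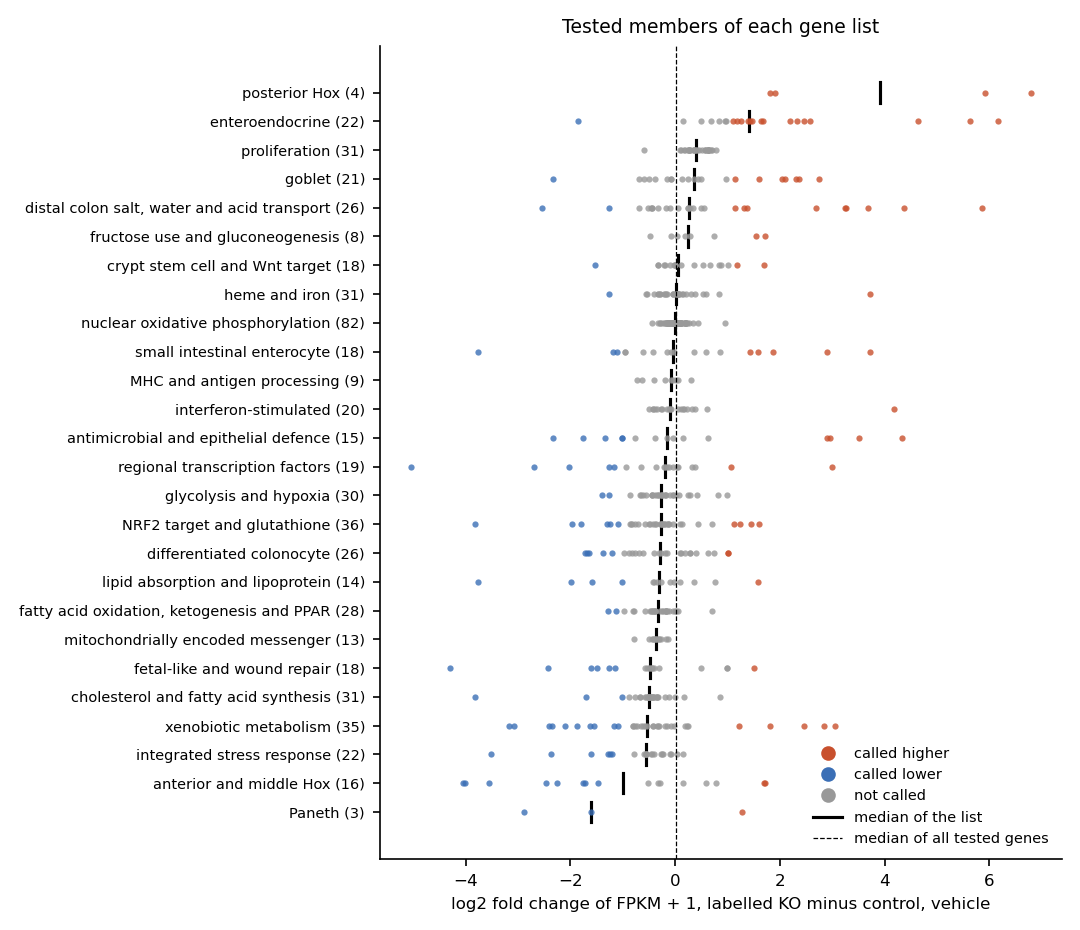
Log2 fold change under vehicle of every tested member of 26 gene lists, the lists of general epithelial and other cell markers left out, the number tested in brackets. Each point is 1 gene, short black lines are list medians and the dashed line is the median of all tested genes, 0.023; posterior Hox and enteroendocrine genes lie farthest to the right, while oxidative phosphorylation genes lie close to the dashed line.

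Heme and iron handling genes take up, store and export iron or make and break heme. Of 31 genes tested, only *Hmox1* was called lower and only *Slc11a2* higher, 6.45% of them against 7.16% of all genes. The median was 0.0063, or 0.15 by TPM, where 2 genes were called higher. *Hmox2*, the gene of the constitutive heme oxygenase, was at 14.1, 12.4 and 11.3 in control and 12.3, 11.9 and 12.5 in KO. The ferritin genes *Fth1* (−0.54, adjusted p = 7.5e-05) and *Ftl1* (−0.57, adjusted p = 0.0012, both from limma) passed the adjusted p-value but not the fold change threshold.

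Detoxification genes changed in both directions. Of 36 NRF2 target and glutathione genes, 6 were called lower and 4 higher, 27.8% of them against 7.16% of all genes, with a median of −0.28, or −0.14 by TPM. *Nqo1*, a quinone reductase gene, fell from 36.5, 31.7 and 31.9 to 12.7, 12.4 and 13.8 and *Mgst1* from 54.3, 45.3 and 44.8 to 11.6, 11.4 and 11.5. *Gstk1* (−1.09), *Slc7a11* (−1.25) and *Gsta1* (−1.79) fell with *Me1*, and *Gsta1* has close copies that may share its fragments. *Gstm1* rose from 69.8, 67.6 and 65.8 to 145, 154 and 148, and *Gstm2* (1.60), *Gstm3* (1.24) and *Gstt1* (1.45) rose too; Gstm genes are likewise alike in sequence. Of 35 genes of xenobiotic metabolism, 10 were called lower and 5 higher, 42.9% of them, with a median of −0.54.

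*Cyp2c65* fell from 82.5, 83.2 and 77.9 to 8.41, 8.04 and 7.82 and the retinal dehydrogenase gene *Aldh1a1* from 33.0, 34.0 and 30.9 to 3.05, 3.14 and 2.70. The carboxylesterase genes *Ces1d* (−2.40), *Ces1e* (−1.88), *Ces1f* (−2.11) and *Ces1g* (−2.35), neighbours of like sequence whose fragments the counting could have split, all fell. *Adh1*, the gene of an alcohol dehydrogenase, rose from 67.1, 69.8 and 69.8 to 482, 522 and 502, and *Cyp2c68* (3.04), *Ugt2b35* (2.46), *Cyp2b10* (1.82) and *Ces2a* (1.22) rose. Members of 1 enzyme family thus stood on both sides, as *Cyp2c65* and *Cyp2c68* show.

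The integrated stress response is a program in which the factor ATF4 raises genes of amino acid supply. Of 22 genes tested, 6 were called lower and none higher, 27.3% of them against 3.44% of all genes called lower, 20 had a negative change and the median was −0.55. *Trib3*, a pseudokinase gene induced by this pathway, fell from 14.9, 14.7 and 18.2 to 0.489, 0.408 and 0.531 and *Chac1*, which degrades glutathione, from 10.8, 11.7 and 13.2 to 1.61, 1.38 and 1.45. *Atf5* (−1.29), *Ddit3* (−1.21), *Nupr1* and *Slc7a11* were the other members called. Of 20 interferon-stimulated genes, 5% were called, near the 7.16% of all genes. The 1 called was *Ifitm3*, a membrane protein that blocks viral entry, which was at 0.537, 0.173 and 0.107 in control and 22.0, 21.2 and 22.3 in KO. The median of the 20 tested was −0.096, which is 0.013 by TPM. None of 9 antigen processing genes was called (median −0.087, or 0.019 by TPM), 5 of them with an adjusted p-value under 0.05, a level that 48.4% of all genes reached.

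Of 15 genes of epithelial defence, 4 were called higher and 5 lower, 60% of them against 7.16% of all genes, or 3 lower without control replicate 1. *Slpi*, a secreted protease inhibitor gene, had no fragment in control and an FPKM of 17.7, 19.4 and 20.7 in KO, at least 359-fold higher. The related gene *Wfdc2* rose from 43.9, 50.6 and 53.5 to 383, 395 and 387, *Saa1*, a serum amyloid A gene, from 6.78, 9.96 and 9.81 to 105, 113 and 112 and the superoxide-producing oxidase gene *Nox1* from 9.24, 7.63 and 8.27 to 68.5, 71.5 and 65.9. *Dmbt1*, a mucosal scavenger receptor gene, fell from 504, 551 and 530.1 to 162, 153 and 149. *Duox2* (−1.02) and *Duoxa2* (−1.02), another oxidase and its maturation factor, sat at the threshold and were not called without control replicate 1 or without control replicate 3. *Saa3* (−1.35) and *Retnlb* (−2.34) fell too, and the list's median was −0.15, but −0.076 without control replicate 1 and −0.0058 by TPM.

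Several of the largest changes lay outside these lists. *Mptx1*, a mucosal pentraxin gene, had no fragment in control and an FPKM of 84.1, 77.0 and 77.2 in KO, at least 1001-fold higher. *Thbs4*, a thrombospondin gene, was at 0.147, 0.249 and 0.199 in control and 88.5, 91.3 and 91.6 in KO. *B3gnt7*, a glycosyltransferase gene, was at 0.542, 0.467 and 0.492 and 97.5, 107 and 101, *Tgm3*, a transglutaminase gene, at 0.191, 0.113 and 0.246 and 37.9, 40.0 and 37.5, and *Trpv6*, an epithelial calcium channel gene, at 0.139, 0.104 and 0.0555 and 23.5, 29.8 and 25.9. *Cma1*, a chymase gene best known from mast cells, was at 0.334, 0.107 and 0.534 in control and 41.5, 42.0 and 42.7 in KO. *Kit*, listed above among goblet genes and also a mast cell receptor gene, was at 0.00680, 0.0394 and 0.0327 in control and 2.92, 3.25 and 3.57 in KO. *Ptprc*, which all white blood cells including mast cells express, had 4 fragments in control and 7 in KO. The 18 markers of other cell types summed to 2.20 to 4.46 in control and 1.08 to 1.84 in KO. A part of mast cells in the *Cma1* difference was not tested.

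Among the decreases, *Apol10a*, an apolipoprotein L family gene, fell from 58.9, 69.1 and 62.3 to 0.262, 0.324 and 0.157 (−5.69, SE 0.078, adjusted p = 3.8e-08 from limma). *Sptssb*, a subunit gene of serine palmitoyltransferase, which starts sphingolipid synthesis, fell from 144, 127 and 116 to 3.38, 1.74 and 2.05. *1810065E05Rik* was the most abundant of the named decreases, at 899.9, 893 and 804 in control and 57.9, 55.8 and 58.2 in KO. *Rps4l*, of the ribosomal protein S4 family, is entered as a transcribed processed pseudogene, and its fragments could be split among copies. It had an FPKM of 25.8, 24.6 and 23.7 in control and 1 fragment over the 3 KO libraries. That is a ratio of 1178 with a 95% counting interval of 211 to 46586. *Cyba*, a subunit gene of the NADPH oxidase complex that partners *Nox1*, fell from 33.1, 32.3 and 36.3 to 1.18, 1.28 and 0.972, whereas *Nox1* itself rose. *Gm1673* (−4.87), *Ociad2* (−4.12) and *Gm42047* (−3.88) complete the named decreases.

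The hemin libraries share none of these 6 libraries and gave a second measurement of each labelled genotype, in a limma model of all 12. Whether they came from the same colonoid lines is not given in the sources used here. A repeated call may therefore measure the same lines again. Of the 451 genes called higher under vehicle, 194 (43.0%) were also called higher under hemin and 3 lower. Of all 12105 genes tested, 2.99% were called higher under hemin. Of the 416 called lower, 204 (49.0%) were also called lower under hemin and 5 higher, against 2.80% called lower among all genes tested. The sign was the same under hemin for 399 and 370 of them. The change of the genotype difference with hemin was tested by its own interaction term, which was called for 5.11% of all genes, for 193 of the 451 and for 120 of the 416. These genes were chosen by the vehicle difference, which is itself a term of the interaction, so the counts are a description.

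The Hox differences were present in the hemin libraries too. *Hoxb13* was at 0, 0 and 0 in control and 134, 128 and 132 in KO under hemin, and all 10 called anterior and middle Hox genes and all 4 posterior ones were called again the same way. *Osr2* (−5.05 under vehicle, −4.59 under hemin), *Cdx2* (−2.03 and −1.27), *Apol10a* (−5.69 and −5.48), *Pyy* (5.63 and 6.34) and *Ppy* (6.17 and 5.89) were also called the same way under hemin. For *Atp12a* the difference was larger under hemin (7.19), and for *Car4* (1.61), *Trpv6* (1.24) and *Tgm3* (1.13) it was smaller, each with the interaction called. *Neurog3* and *Reg4* turned from higher under vehicle to lower under hemin (−1.67 and −1.24), and *Ifitm3* had no fragment in any of the 6 hemin libraries. Of the integrated stress response genes, *Trib3* (−0.26) and *Chac1* (−0.064) were no longer called.

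**Figure D5:**
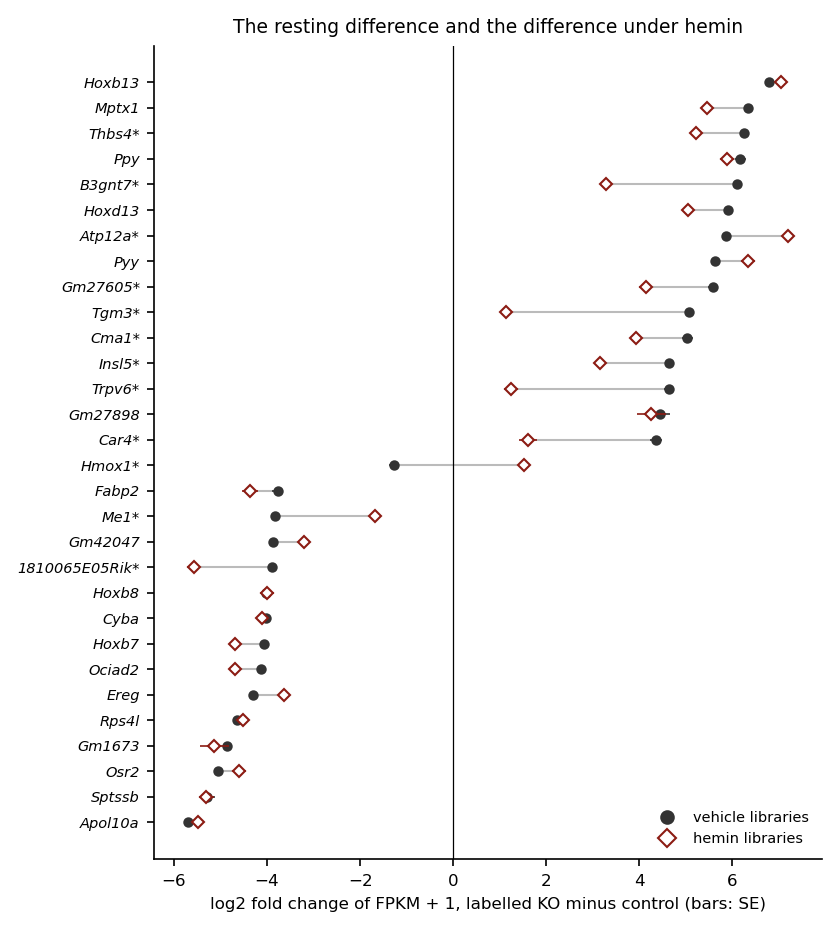
Log2 fold change between the labelled genotypes in the vehicle libraries (filled circles) and in the hemin libraries (open diamonds) for *Hmox1* and the largest increases and decreases under vehicle, with bars of 1 SE. Asterisks mark the 12 of 30 genes with the interaction called; *Hmox1* is the one gene shown that changes sign, and *Tgm3*, *Trpv6* and *Car4* end closest to 0 among the increases with it called.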

How the data were processed

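RNA of mouse colonoids was sequenced by the study's provider as poly-A mRNA. The authors deposited 1 table of FPKM for 54532 genes in 12 libraries, with gene positions on mm10. The submitters' processing notes name fastp, HISAT2 2.0.5 and featureCounts 1.5.0-p3, and how libraries were scaled is not given in the sources used here. The deposited FPKM had 1 and the same median-of-ratios factor in all 12 libraries, so they were already on that scale. Multiplied by gene length and divided by the value that 1 fragment has in that library, the deposited FPKM fell within 0.01 of whole numbers, which gave each library's fragments, 13257589 to 16462911 for the vehicle libraries. Intervals and floors built on them cover counting error only.

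Groups and replicate numbers were taken from the sample titles, also for KO hemin replicate 3, whose genotype entry differs. Genes that reached 1 FPKM in 3 or more of the 6 vehicle libraries were fitted as log2(FPKM + 1) in limma 3.58.1 (R 4.3.3) with empirical Bayes moderation and an intensity trend, and two-sided p-values were adjusted by Benjamini-Hochberg over all 12105. Calls needed an adjusted p below 0.05 and a log2 fold change beyond 1 either way. The hemin contrast and the interaction came from a 4-group model of all 12 libraries over the same genes. The fit was tested on simulated data. A gene with no fragment in 1 group was set to a floor of 3 fragments over its 3 libraries for fold changes. Named genes were *Hmox1*, the 15 called genes that rose most and the 15 that fell most with no overlap between groups, and members of the gene lists; some genes of this rule are not reported here, and genes outside it are named as chosen after their values were seen: *Rasd2*, *Arhgap10*, *Gm6665*, *Hottip*, *Hoxa11os* and *Hoxb5os*. Members and lists were chosen with earlier results of these data known. Alternatives were another pseudocount, other filters, TPM and median-of-ratios scaling, a replicate block, all 12 libraries in 1 fit, no intensity trend, limma-voom on recovered fragments, the adjusted p-value alone and leaving out each library. Promoter windows came from RefSeq on GRCm38.p6. Figures were drawn with matplotlib 3.10.9.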

Additional observations from a re-analysis of the deposited data

Results flagged for a closer look

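The difference between the labelled genotypes was itself different under hemin for 77 of the 168 genes named for their expression and for 5.11% of all genes tested, by the interaction of genotype and hemin in limma (called at an adjusted p-value under 0.05, the largest being 0.0094, and an absolute value above 1). Most of the named genes were chosen by their vehicle difference, which enters the interaction, so their share is a description. The values that follow are the log2 fold change between genotypes under hemin minus that under vehicle. For 25 of these genes the difference had opposite signs in the vehicle and the hemin libraries, values close to 0 included.

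*Hmox1* itself had 2.81, from −1.27 under vehicle to 1.53 under hemin, an order opposite to the label in all 6 hemin libraries. Genes below 0 under vehicle and above 0 under hemin were *Gsta1* (4.37), *Slc7a11* (2.65), *Mogat2* (1.97), *Areg* (1.92), *Fth1* (1.66), *Nqo1* (1.65), *Ndrg1* (1.65), *Plaur* (1.56), *Lgals3* (1.41), *Dgat2* (1.25) and *Ftl1* (1.11). Those that stayed below 0 but came closer to it were *Trib3* (3.25), *Chac1* (2.31), *Me1* (2.14), *Mgst1* (1.70), *Retnlb* (1.69), *B4galnt1* (1.23), *Vnn1* (1.12) and *Dhrs9* (1.11). *Fth1* and *Ftl1* had not been called under vehicle.

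Genes above 0 under vehicle and still further apart under hemin were *Aqp8* (2.48), *Sgk1* (2.17), *Slpi* (1.73), *Rbp2* (1.64), *Atp12a* (1.33), *Spink4* (1.30), *Wfdc2* (1.10), *Slc20a1* (1.08), *Scnn1a* (1.08) and *Gstm2* (1.06). Members of the transport list stand here (*Atp12a*, *Aqp8*, *Scnn1a* and *Sgk1*) and in the groups below (*Car4*, *Best2*, *Fxyd4*, *Slc26a3* and *Guca2a*). Genes above 0 under vehicle whose difference was smaller under hemin were *Thbs4* (−1.03), *Foxa2* (−1.05), *Fxyd4* (−1.07), *B3gnt5* (−1.10), *Cma1* (−1.11), *Adh1* (−1.13), *Cyp2c68* (−1.23), *Nkx2-2* (−1.32), *Gm27605* (−1.45), *Insl5* (−1.47), *Ern2* (−1.47), *St6galnac4* (−1.58), *Slc15a1* (−1.65), *Insm1* (−1.79), *Kit* (−1.91), *Creb3l1* (−1.91), *Slc11a2* (−2.41), *Best2* (−2.48), *Nox1* (−2.69), *Car4* (−2.75), *B3gnt7* (−2.81), *Trpv6* (−3.39), *Tgm3* (−3.93) and *Ifitm3* (−4.18). *Ifitm3* is among them with no fragment in any hemin library of either genotype.

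Genes with a value above 0 under vehicle and below 0 under hemin were *Foxa3* (−1.08), *Fev* (−1.14), *Smoc2* (−1.39), *Rasd2* (−1.42), *Ace* (−1.59), *Gcg* (−1.66), *Slc26a3* (−1.71), *Cyp2b10* (−1.83), *Tff3* (−1.93), *Sst* (−1.99), *Agr2* (−2.11), *Reg4* (−3.98) and *Neurog3* (−4.24). Under hemin *Foxa3* (−0.0071), *Cyp2b10* (−0.0077) and *Fev* (−0.035) were close to 0. *Tff3* and *Sst* had not been called under vehicle. Genes below 0 under vehicle and further below under hemin were *Ces1e* (−1.06), *Hoxb5* (−1.11), *B4galnt2* (−1.39), *Hoxb6* (−1.40), *Ces1f* (−1.62), *1810065E05Rik* (−1.69), *Isx* (−2.08), *Guca2a* (−2.08), *Ces1g* (−2.44) and *Muc2* (−2.51), of which *Muc2* had not been called under vehicle.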

How the results depend on the processing

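*Hmox1* and the 29 genes named for the size of their change kept their direction and their call in each of 479 values from the alternatives. Of the 2167 values of the other 138 named genes, 4 gained a call. A further 21 lost the call, among them those of *Gapdh*, *Lss*, *Dgat2* and *Duoxa2*. Genes with changes near 0 turned sign by TPM for *Hmox2* (0.11) and *Lgr5* (0.099), by TPM without *Gm23935* for *Hmox2* (0.027) and *Lgr5* (0.024), and without 1 control replicate for *Hmox2* (−0.11 to 0.042) and *Lgr5* (−0.15 to 0.044). The counts called higher and lower were 211 and 216 of the 7663 genes whose mean FPKM reached 5, where fewer genes are tested, 698 and 451 by TPM (the cause was not tested), and 3109 and 2751 by the adjusted p-value alone, which drops the fold change threshold. Leaving out 1 library gave 446 to 460 and 413 to 433, and the other alternatives stayed within 1.5 times, among them median-of-ratios scaling, whose factor was 1.01 for every library, so that it could change little. With the replicate number as a block the counts were 452 and 419 and included all 867 calls. Correlations of deviations were 0.034 to 0.053 for libraries of the same number in both genotypes and −0.068 to 0.032 for those of different numbers, so each same-number value was above each other one but under 0.1, and the numbers were not taken to pair the libraries. Those called the same way under hemin were 646 of 1211 genes called under vehicle with a pseudocount of 0.1 in place of 1, which calls more low genes, 550 of 1149 by TPM, 395 of 871 with the block, and 397 to 401 on leaving out 1 library, against 398 of 867 as reported. The interaction was called for 11 to 15 of the 30 genes in alternatives chosen after the data were seen. The median of small intestinal enterocyte, interferon-stimulated, antigen processing and nuclear oxidative phosphorylation genes is below 0 as reported and above 0 by TPM. By TPM, 25 list medians moved by more than the spread between replicates, and 19 did without *Gm23935*, beside the shift of the median of all genes to 0.17 and 0.088. Examples by TPM are stem cell genes (0.048 to 0.20), regional factors (−0.20 to −0.059) and NRF2 target genes (−0.28 to −0.14). With 3 libraries a group, precision is set by the spread between libraries, and a difference that missed the threshold is not shown to be absent.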

Other observations

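Glycosyltransferases and sulfotransferases that build the sugar chains of mucins and glycolipids were mostly on no list. They were gathered by 13 gene symbol prefixes chosen after their values were seen, so their count is a description. Of 51 such genes tested, 14 were called higher and 6 lower in the libraries labelled KO, 39.2% of them against 7.16% of all genes tested. *B3gnt5*, which starts lacto-series glycolipids, was at 1.24, 1.18 and 0.910 FPKM in control and 34.9, 33.3 and 33.0 in KO. *Fut4*, a fucosyltransferase gene, was at 0.506, 0.431 and 0.679 and 21.5, 22.7 and 23.4. Both rose in every KO library above every control library, as did the sialyltransferase genes *St3gal6* (3.85) and *St6galnac4* (3.66). The 2 groups did not overlap for 58.9% of all genes tested.

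Other enzymes of this kind fell. *B4galnt1*, which makes GM2 and GD2 gangliosides, was at 16.6, 23.2 and 22.6 in control and 0.407, 0.754 and 0.636 in KO. *B4galnt2*, which makes the Sda antigen, was at 113, 115 and 115 and 26.4, 27.3 and 26.1, and *Gcnt3*, a mucin core branching enzyme gene, at 64.0, 68.1 and 66.3 and 18.0, 18.0 and 17.2. Under hemin the log2 fold changes of *Fut4*, *B4galnt2* and *Gcnt3* were 3.52, −3.45 and −2.45.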
